A study of Mus musculus with 18 samples.

Results

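E0771 cells that carried wild-type MRTFA were compared with E0771 cells that carried the empty vector, with 3 libraries in each group. These are 6 of the 18 RNA-seq libraries of the series, taken by the cell line and the genotype in their labels. The genes described are the 14446 of 32286 entries of the count table that passed a low-count filter on these 6 libraries. E0771 is a mouse mammary carcinoma line. Both groups carried the retroviral vector pRetroX, which per the series' design text drives its insert under doxycycline. Both had 2 µg/ml doxycycline for 48 h, so that the groups differ in the insert and not in the drug. Another E0771 group with the same vector and drug carried MRTFA Y238A, a form that per the same text does not bind SRF properly. AT-3, another mouse mammary carcinoma line with the same vectors and drug, is used where the response of E0771 is compared with that of another line. Each of these other groups also had 3 libraries. The labels do not say whether the 3 libraries of a group came from separate cultures, from separate infections or from 1 clone, so the p-values measure the spread between these libraries, which may be technical. The series asks how transcription by MRTFA and SRF relates to the stiffness of cancer cells and to their Ca2+ and K+.

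MRTFA is a coactivator that is held in the cytoplasm by actin monomers. When monomers are drawn into filaments it is freed, enters the nucleus and joins the transcription factor SRF, which binds the CArG box, a short A and T-rich element near the starts of its target genes. The targets include actins and the proteins that assemble, bundle and contract actin filaments or tie them to the matrix, and in muscle SRF with the related coactivator myocardin drives the contractile genes. SRF also works with the ternary complex factors, such as Elk1, which answer to MAPK signalling and act on the immediate early genes.

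The construct was measured in its own entry of the count table, named MRTFA. In CPM, which are counts relative to the TMM-scaled library total, it stood at 0.111, 0.0982 and 0 in the 3 empty vector libraries, at 340.0, 319 and 275 in the Y238A libraries and at 867, 693 and 709 in the wild-type libraries. These and all later values are in the order of the replicate numbers. The mouse gene Mrtfa did not show a difference, with 55, 54.9 and 61.2 CPM with empty vector and 57.2, 56.9 and 59 CPM with wild type (log2 fold change 0.02 ± 0.04, SE, adjusted p = 0.841). The labels of the 6 libraries and this entry therefore do not contradict each other.

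Library totals lay between 81265466 and 107361933 counts. Genes with 2 counts made up 83.0% to 85.5% of those with 1 or 2 counts in a library, a sign that the mates of a pair entered the table separately. Counting intervals given below would then be narrower than they should be. Transcripts of the AT-3 line were found in some E0771 libraries. Over 246 genes that AT-3 uses and E0771 hardly does, the median was 1.22% of the AT-3 level in empty vector replicate 2 and 0.497% in wild-type replicate 2. It was at most 0.0388% in the other 4 of the 6 libraries. The construct itself stood at 0.0147% and 0.013% of its wild-type level in empty vector replicates 1 and 2. Of the mammary epithelial markers, Krt8 was present at 312, 302 and 291 CPM with empty vector, whereas Epcam averaged 1.93 CPM, Cdh1 0.41 CPM and Krt5 0.0131 CPM, so the line's label is carried by few defining markers. The 7 fibroblast markers summed to between 177.8 and 199.3 CPM with empty vector and between 130.1 and 144.8 CPM with wild type, most of it Col1a1, Pdgfra and Pdgfrb, with Lum at 0 in both groups. The 8 leukocyte and macrophage markers summed to between 7.5 and 9.01 CPM with empty vector and between 6.11 and 6.69 CPM with wild type, with Cd3e at 0 in all 6 libraries. The 8 endothelial and adipocyte markers summed to between 2.395 and 2.69 CPM with empty vector and between 7.6 and 10.4 CPM with wild type. Of the 4 that passed the filter, Vwf alone differed, with a log2 fold change of 3.12 (adjusted p = 1.25e-08, edgeR quasi-likelihood F test). Kdr (-1.06), Pecam1 (-0.35) and Fabp4 (0.53) did not pass the test. The part of such cells in the results was not tested.

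Wild-type MRTFA was accompanied by a broad change in which large differences were nearly all increases. At an adjusted p below 0.05 (edgeR quasi-likelihood F test), 3633 genes or 25.1% of those tested differed, of which 2230 (15.4%) were higher and 1403 (9.71%) lower than with empty vector. The imbalance lay in the large changes: 841 genes (5.82%) were higher by at least 2-fold and 54 (0.374%) lower by at least 2-fold, and past 16-fold there were 223 higher and 0 lower. Small differences ran the other way, with 1020 genes higher and 1249 lower by less than 1.5-fold. Of the 841 genes, 564 averaged under 1 CPM with empty vector and 130 averaged 10 CPM or more, so much of the response was in genes that E0771 hardly expressed without the construct. In bulk samples a change in RNA per cell and a change in the share of cells with that RNA cannot be told apart.

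**Figure D1:**
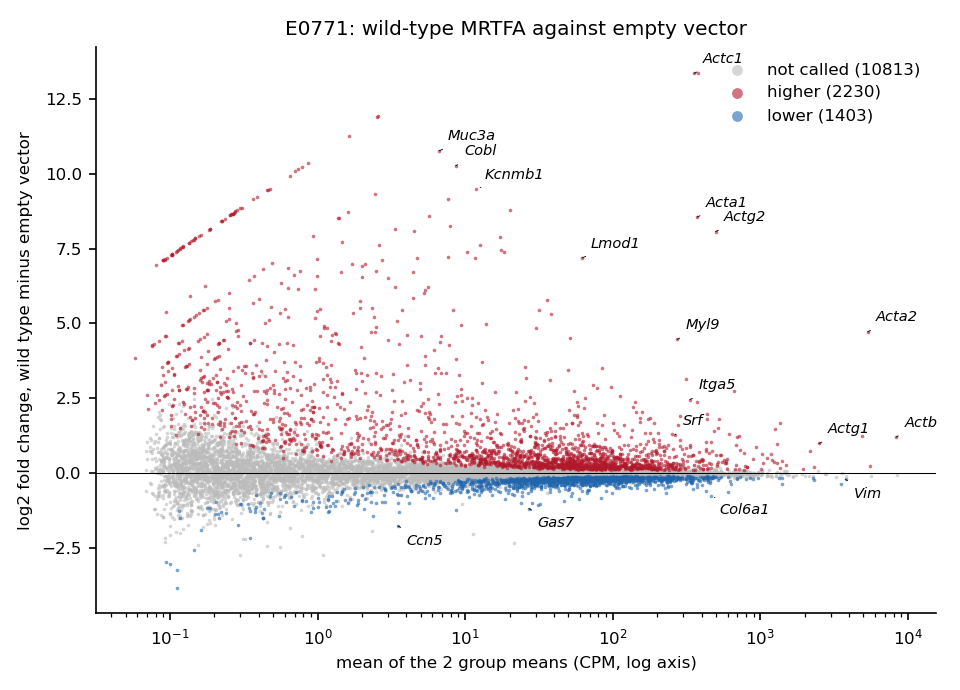
Every tested gene in E0771, with the mean of the wild-type and empty vector group means in CPM on a log axis across and the log2 fold change (wild type minus empty vector) upwards. Red points are the 2230 genes called higher and blue points the 1403 called lower, and the red points reach above 13 on the log2 scale at Actc1 while few blue points pass -2, all of them at low levels. The slanting rows of red points at the left are genes with no or few counts in the empty vector libraries, whose fitted fold depends on the prior count.

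How the small changes split into higher and lower depended on the scaling of the libraries. The share of higher genes among those called was 61.4% with TMM and 48.7% with DESeq2's size factors (2009 higher and 2116 lower). It was 45.0% with TMM on an AT-3 library as reference (1936 and 2363) and 37.2% with library totals (1839 and 3101), which moved the median of all genes by -0.08 on the log2 scale. Without the 4 libraries of the series with most transcripts of another group (called the 4 carry-over libraries below: E0771 empty vector replicate 2, wild-type replicate 2 and Y238A replicate 1, and 1 AT-3 library), 1756 genes were higher and 649 lower. Of the 895 genes past 2-fold, 0 had the other sign under any setting tried, but shifts of the size seen between scalings are too small to turn a 2-fold change. The number lower by at least 2-fold did move with the scaling. It was 54 with TMM, 70 with DESeq2's size factors, 77 with the AT-3 reference and 88 with library totals, and 37 without the 4 carry-over libraries. The number higher by at least 2-fold was 841, 822, 816, 806 and 842 in the same order. All list counts below are to be set beside 15.4% higher and 9.71% lower over all genes tested. Counts of lower genes in the lists below are those with TMM, and only some are given with their counts under the other scalings. Those given without may move too. With library totals the lower genes numbered 16 and not 12 for calcium pumps, channels and stores, and 19 and not 14 for calcium-binding genes. They numbered 9 and not 6 for the sodium-potassium pump list, 13 and not 11 for fibrillar collagens and matrix, 11 and not 6 for TGF-beta, and 10 and not 7 for apoptosis.

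The actins, the monomers of the filaments that hold MRTFA back, rose as a whole family. Of 6 isoforms tested, 6 were higher and 0 lower, against 15.4% and 9.71% of all genes. The median log2 fold change was 6.39 against -0.00364 over all genes. Actc1, the cardiac actin, went from 0.0741, 0.0785 and 0.0473 CPM with empty vector to 833, 658 and 647 CPM with wild type (log2 fold change 13.36 ± 1.05, adjusted p = 6.11e-07). Its empty vector mean was 0.00935% of the wild-type mean, and that of the construct, which these cells do not carry, was 0.00922%. Whether the few counts of Actc1 are the cells' own was not tested. Acta1, the skeletal muscle actin, went from 1.88, 1.9 and 2.17 to 829.5, 713 and 690.2 CPM (8.55 ± 1.01, adjusted p = 2.9e-05), and DESeq2 gave this gene no adjusted p. The smooth muscle isoforms followed, with Actg2 at 2.48, 5.83 and 2.79 and then 1060.0, 964 and 948 CPM (8.07 ± 0.66, adjusted p = 8.9e-07). All 4 of the isoforms known from muscle rose over 16-fold. Their groups did not overlap, which held for 44.8% of all genes tested.

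Acta2, the smooth muscle alpha-actin that also marks myofibroblasts, was already present at 363, 419.8 and 389.5 CPM with empty vector and stood at 11018, 9940.0 and 9894 CPM with wild type (4.72 ± 0.13, adjusted p = 8.89e-13). The cytoplasmic actins of every cell rose less: Actb from 4875, 5065 and 5213 to 12051, 11465 and 11303 CPM (1.20 ± 0.04, adjusted p = 8.85e-14). Actg1 went from 1652, 1679 and 1698 to 3474, 3248 and 3234 CPM (0.99 ± 0.05, adjusted p = 2.93e-12). Summed over the 6 genes, actin took between 6894 and 7305 CPM with empty vector and between 26716 and 29266 CPM with wild type, whereas the Y238A libraries held between 5949 and 6556 CPM. Actin genes are alike in sequence and have pseudogene copies, and how reads shared between them were counted is not given in the sources used here.

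**Figure D2:**
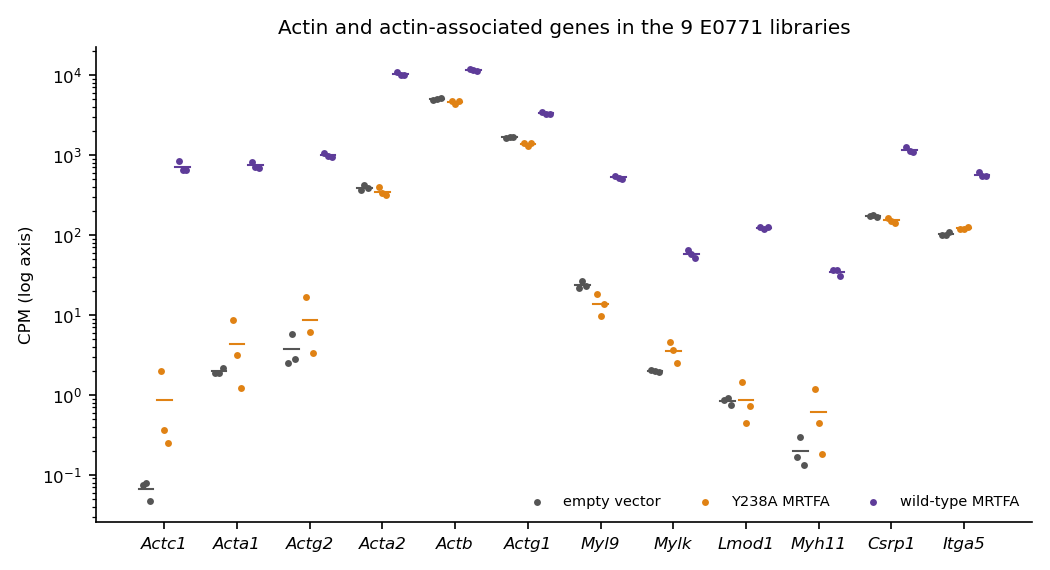
CPM on a log axis of 12 actin and actin-associated genes in each of the 9 E0771 libraries (points, replicates 1 to 3 from left to right within a group) with the group mean as a bar. For all 12 genes the 3 wild-type libraries lie above the 3 empty vector and the 3 Y238A libraries, and Actc1 spans from 0.0473 CPM to 833.0 CPM.

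SRF binds the CArG box, so the windows around gene starts were searched for it. RefSeq's windows (250 bases before to 50 bases after a start, GRCm38.p6) were found by symbol for 10804 of the 14446 tested genes, and the CArG box, which reads alike on both strands, was searched on the whole window. It was present for 184 of the 10804 genes (1.7%) and in 535 of all 32851 windows (1.63%). Among genes higher by at least 2-fold it was present for 50 of 587 (8.52%), and among those higher by less for 42 of 1100 (3.82%). It was present among those not called for 86 of 8024 (1.07%) and among those lower for 6 of 1093 (0.549%). When 1 mismatch was allowed, the shares were 38.0%, 26.1%, 19.0% and 14.1%, against 20.2% of all. A match is a description of letters and not a site of binding.

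**Figure D3:**
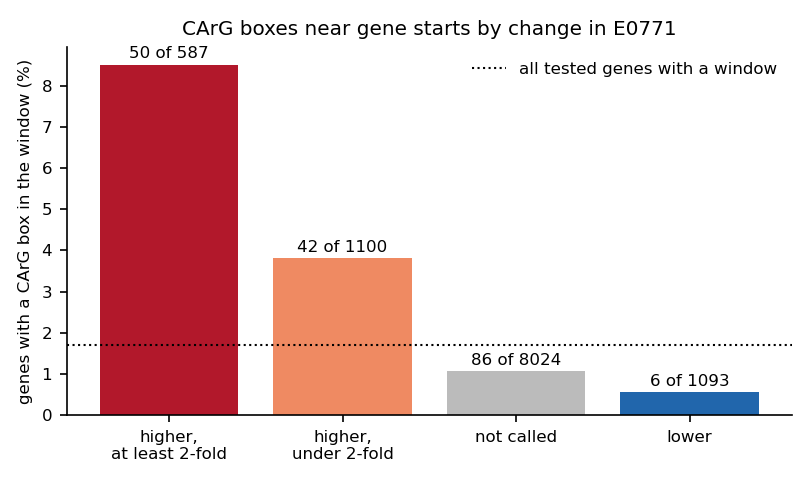
Share of genes with a CArG box in a RefSeq window near their start, by the change called in E0771 with wild-type MRTFA, with the counts above the bars. The share was 8.52% in genes higher by at least 2-fold and 0.549% in genes lower, with 1.7% over all tested genes with a window (dotted line).

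The windows of 5 of the 50 genes that were higher by at least 2-fold and held a CArG box are shown with their boxes in capitals, 5′ to 3′ on the gene's strand: the 2 striated muscle actins, the myosin light chain Myl9, vinculin (Vcl) and Srf itself. All windows are of GRCm38.p6, from 250 bases before to 50 after the start, and positions count from the start of the gene. Actc1 (chr2:114052826-114053125, minus strand) had its box beginning at -47, Acta1 (chr8:123894726-123895025, minus strand) at -73, Myl9 (chr2:156775214-156775513, plus strand) at -161, Vcl (chr14:20929148-20929447, plus strand) at -227, and Srf (chr17:46556113-46556412, minus strand) had 2, at -82 and -62. In these 5 genes each box lay before the start, and the spacing differed from gene to gene. The search covered only 250 bases before and 50 after a start, and some other higher genes had their box after it, such as Gpr183 at 29 and Myh13 at 22.
Actc1: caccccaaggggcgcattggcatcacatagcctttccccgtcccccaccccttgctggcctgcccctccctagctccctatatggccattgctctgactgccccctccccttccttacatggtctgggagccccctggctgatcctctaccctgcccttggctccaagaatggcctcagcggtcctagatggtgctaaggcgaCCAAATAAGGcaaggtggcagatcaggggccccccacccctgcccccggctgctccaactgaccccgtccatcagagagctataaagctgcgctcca
Acta1: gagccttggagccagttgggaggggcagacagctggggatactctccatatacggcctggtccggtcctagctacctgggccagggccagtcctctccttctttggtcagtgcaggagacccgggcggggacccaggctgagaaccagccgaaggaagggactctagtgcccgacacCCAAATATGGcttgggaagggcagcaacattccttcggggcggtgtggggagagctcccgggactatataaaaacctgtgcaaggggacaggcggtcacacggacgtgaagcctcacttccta
Myl9: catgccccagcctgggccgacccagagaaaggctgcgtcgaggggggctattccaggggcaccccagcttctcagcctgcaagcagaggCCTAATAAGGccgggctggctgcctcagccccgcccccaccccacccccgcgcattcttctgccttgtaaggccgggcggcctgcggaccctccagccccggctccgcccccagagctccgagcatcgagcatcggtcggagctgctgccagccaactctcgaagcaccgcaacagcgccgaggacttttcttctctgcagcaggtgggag
Vcl: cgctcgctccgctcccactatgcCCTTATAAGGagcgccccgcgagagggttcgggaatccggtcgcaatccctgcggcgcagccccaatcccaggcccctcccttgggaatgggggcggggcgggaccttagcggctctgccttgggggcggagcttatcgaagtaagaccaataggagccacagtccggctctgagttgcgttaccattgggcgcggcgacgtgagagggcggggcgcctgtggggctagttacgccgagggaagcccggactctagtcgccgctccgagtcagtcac
Srf: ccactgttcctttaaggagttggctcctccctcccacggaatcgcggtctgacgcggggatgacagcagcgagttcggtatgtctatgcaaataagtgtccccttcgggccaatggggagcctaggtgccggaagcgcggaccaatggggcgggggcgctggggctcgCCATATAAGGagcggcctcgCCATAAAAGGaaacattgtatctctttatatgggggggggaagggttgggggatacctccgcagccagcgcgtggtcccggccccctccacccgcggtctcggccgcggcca
Exact boxes were also found before the starts of Lima1 (-47), Filip1l (-62), Cnn2 (-56), Fhl2 (-31 and, from another start, -96), Fhl1 (-102) and Myl6 (-50). These 6 were picked from the 50 genes higher by at least 2-fold, so their direction was set by that choice. The window of Acta2 held no exact box and 2 sites with 1 mismatch, and that of Itga5 held 1 such site. Among the genes with the smallest p-values, Vcl had an exact box, whereas the windows of Itga5, Pdlim5, Csrp1, Tpm2 and Dstn held none. Of the 34 genes of the MRTF-SRF cytoskeletal list with a window, 9 (26.5%) had an exact box, as did 6 of 22 sarcomere genes (27.3%), 3 of 4 actins, 1 of 15 smooth muscle contractile genes (6.67%), 1 of 24 crosslinkers, spectrins and tropomyosins (4.17%), 0 of 13 potassium channels and 0 of 32 interferon-stimulated genes.

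Among SRF, its MRTF coactivators and the ternary complex factors, Srf and Elk1 rose. Srf, itself a known target of its product, went from 162, 158 and 145 CPM to 403, 366 and 352 CPM (log2 fold change 1.27 ± 0.07, adjusted p = 6.11e-11), with every wild-type library above every empty vector library. Elk1, a ternary complex factor, rose from 12.8, 13.8 and 13.4 to 26.2, 25.2 and 25.1 CPM (0.94 ± 0.06, adjusted p = 2.24e-10). Mrtfb, the paralogue of MRTFA, was slightly lower (-0.18 ± 0.05, adjusted p = 0.0105), a call that was lost without the 4 carry-over libraries (adjusted p = 0.077). The other 4 of the 7 genes listed, Mrtfa among them, did not pass the test.

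Genes that MRTF and SRF are known to drive in the cytoskeleton were higher with few exceptions. Of 40 genes of an MRTF-SRF cytoskeletal list, 37 were higher and 1, Ablim1, was lower, with a median log2 fold change of 1.28. The 5 smallest p-values of the whole comparison belonged to Itga5, the fibronectin receptor's alpha chain, to Pdlim5 and Csrp1, LIM proteins on actin fibres, to Tpm2, a tropomyosin, and to Dstn, the actin-severing destrin. Itga5 stood at 101, 101 and 108 CPM with empty vector and 606, 544 and 545 CPM with wild type (2.45 ± 0.05, adjusted p = 9.9e-18). Csrp1 stood at 171, 178 and 168 and 1250.0, 1119 and 1086 CPM (2.74 ± 0.06, adjusted p = 2.93e-17). For both genes the 3 libraries of a group lay close together, and every wild-type library was far above every empty vector library. Pdlim5 (2.05 ± 0.04), Tpm2 (2.39 ± 0.05), Dstn (1.97 ± 0.04), Vcl, which links integrins to actin (1.61 ± 0.04), Actn1, the crosslinker alpha-actinin 1 (1.46 ± 0.04), and Ehbp1l1 (1.79 ± 0.05) were likewise higher. So was Prepl, a peptidase-like protein that also had 1 of the 10 smallest p-values, at 35.9, 37.9 and 37.8 and 122, 122 and 114 CPM (1.68 ± 0.05, adjusted p = 8.78e-16). Ablim1, an actin-binding LIM protein, was the exception at 24.5, 26.9 and 28.1 and 16.8, 19.5 and 19.4 CPM (-0.51 ± 0.11, adjusted p = 0.00176).

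Actin-binding proteins did not all take part to the same degree. Of 29 crosslinkers, spectrins and tropomyosins, 26 were higher and 1 lower (median 1.17, with 0 lower without empty vector replicate 2). Palladin (Palld) went from 64.1, 65.4 and 63.9 to 601, 535 and 550.5 CPM (3.12 ± 0.08, adjusted p = 2.53e-15) and the bundling protein plastin 2 (Lcp1), otherwise typical of leukocytes, from 4.52, 3.97 and 4.42 to 101, 96.4 and 96.4 CPM (4.51 ± 0.16, adjusted p = 5.15e-13). Of 30 proteins of filament turnover and capping, 17 were higher and 3 lower (median 0.27, with 1 lower without empty vector replicate 2 and 0 without the 4 carry-over libraries). Tmsb4x, which buffers actin monomers, went from 16.9, 22.7 and 18.8 to 112, 112 and 108 CPM (2.51 ± 0.07, adjusted p = 8.92e-15). The nucleators and elongators, which start and extend filaments, had the smallest median of these lists: 11 of 31 were higher and 5 lower (8 lower with library totals), with a median of 0.10. Among them Arpc5, a subunit of the Arp2/3 complex, rose from 113, 115 and 112 to 234, 219 and 214 CPM (0.97 ± 0.04, adjusted p = 4.48e-13). Cobl, a nucleator that assembles filaments without that complex, appeared at 18.9, 16.2 and 16.6 CPM from 0, 0.0393 and 0 CPM (10.27 ± 1.02, adjusted p = 5.81e-06, and 13.68 without empty vector replicate 2).

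Contractile genes of smooth muscle rose nearly without exception: 21 of 22 tested of 25 listed were higher and 0 lower, with a median of 2.22. Myl9, the regulatory light chain of smooth muscle myosin, went from 21.8, 26.6 and 22.9 to 554, 519.8 and 503 CPM (4.47 ± 0.28, adjusted p = 4.1e-08). Mylk, the kinase that switches this light chain on, went from 2.06, 2.0 and 1.95 to 65.1, 57 and 52.2 CPM (4.86 ± 0.40, adjusted p = 9.75e-07). Lmod1, which nucleates actin in smooth muscle, went from 0.87, 0.923 and 0.738 to 126, 119 and 124 CPM (7.19 ± 0.52, adjusted p = 2.45e-07). Myh11, the smooth muscle myosin heavy chain, went from 0.167, 0.294 and 0.132 to 36.5, 36.5 and 30.9 CPM (7.45 ± 0.65, adjusted p = 1.49e-06). In each of these 4 genes every wild-type library stood more than 16-fold above every empty vector library. Cald1, caldesmon, which is common outside muscle, rose from 408, 439.7 and 419 to 1000.0, 972 and 946 CPM (1.20 ± 0.04, adjusted p = 6.94e-14).

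For some of the contractile genes the fold rested on empty vector replicate 2, the library with AT-3 transcripts. Cnn1, calponin, stood at 0.148, 2.1 and 0.341 CPM with empty vector and 25.9, 31.3 and 23.3 CPM with wild type, a log2 fold change of 4.98 that became 6.78 without that library. Tagln, transgelin, stood at 0.0185, 0.393 and 0.00946 and 2.14, 1.78 and 1.5 CPM, with 3.72 and 6.89 without it. Fhl1, a LIM protein of muscle, stood at 0, 4.31 and 0.0568 and 62, 63.7 and 61.1 CPM, with 5.45 and 11.05 without it. All 3 were called with the library and without it, and the call of Tagln was lost when the 6 libraries were fitted alone (adjusted p = 0.0619).

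Some genes of the striated muscle sarcomere rose from near nothing. Of 45 listed, 31 were tested, of which 18 were higher, 13 not called and 0 lower, with a median of 1.21. The other 14 were under the low-count filter. A gene near 0 with empty vector can pass that filter only through its wild-type libraries, so the share and the median lean upwards. Together the 45 took between 54.4 and 63.3 CPM with empty vector and between 1485 and 1822 CPM with wild type, most of it Actc1 and Acta1. Actn2, the sarcomeric alpha-actinin (5.10 ± 0.29), Myom1, a protein of the M-band (3.34 ± 0.23), Ldb3, a protein of the Z-disc (3.54 ± 0.16), and Myl7, an atrial light chain (5.46 ± 0.41), had the smallest p-values of the list. Actn2 stood at 0.204, 0.255 and 0.132 CPM with empty vector and 7.43, 6.45 and 6.4 CPM with wild type, and Myl7 at 0.0556, 0.196 and 0.246 and 8.25, 7.02 and 6.69 CPM. Of the factors that direct muscle lineages, 5 of 21 listed were tested, 2 of them were higher and 0 lower (median 0.06). Among the others, Myog, Myf5, Myf6, Pax7, Tbx20, Hand2 and Mymx were at 0 in both groups, and Myod1 averaged 0 CPM with empty vector and 0.0159 CPM with wild type. Mef2a was higher (0.28 ± 0.06, adjusted p = 0.00144), and Nkx2-5 was called at 0, 0.196 and 0 and 0.233, 0.819 and 0.238 CPM, with its highest level in each group in the replicate that held AT-3 transcripts. The call of Nkx2-5 was lost when the 6 libraries were fitted alone (adjusted p = 0.155) and without empty vector replicate 1 (0.0634), empty vector replicate 3 (0.0657) or the second wild-type library (0.0978). Its log2 fold change moved from 2.75 to 8.37 without empty vector replicate 2.

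Adhesion genes rose too, by less. Of 49 tested genes of integrins and focal adhesions, 29 were higher and 4 lower (7 lower with library totals), with a median of 0.35. Itga1, a collagen receptor chain, rose from 20.9, 23.5 and 25.7 to 180.2, 171 and 159.7 CPM (2.87 ± 0.10, adjusted p = 3.49e-13). Kank1, which ties focal adhesions to microtubules, went from 19.1, 18 and 18.9 to 102, 92.3 and 95.7 CPM (2.37 ± 0.06, adjusted p = 3.98e-16). The integrin chains did not move as one, since Itgb5 (-0.54 ± 0.05), Itga3, a laminin receptor chain (-0.28 ± 0.04), and Itgb4 (-0.61 ± 0.17) were lower. The call of Itgb4 was lost without empty vector replicate 1 (adjusted p = 0.0618). Of 24 LIM and PDZ-LIM proteins 15 were higher and 2 lower (median 1.0). Of 10 genes of caveolae, the membrane pits that buffer tension, 6 were higher and 0 lower (median 0.63), with Cav1 at 226, 239 and 247 and then 427, 429.7 and 429.7 CPM (0.85 ± 0.07, adjusted p = 4.64e-09).

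Immediate early genes, the targets of SRF with ternary complex factors, were higher in part. Of 25 tested, 15 were higher and 2, Klf4 and Jund, lower, with a median of 0.22. Zfp36, which destabilises inflammatory mRNAs, rose from 11.7, 11.7 and 11.6 to 39.6, 35.5 and 35.3 CPM (1.66 ± 0.10, adjusted p = 7.86e-11). Fos went from 0.713, 0.766 and 0.795 to 3.57, 3.69 and 3.57 CPM (2.25 ± 0.22, adjusted p = 1.28e-07). Of 33 genes of MAPK feedback and growth factors 15 were higher and 6 lower (2 lower without the 4 carry-over libraries). Among them the receptor Egfr stood at 10.4, 9.96 and 9.61 and 24, 25.6 and 25.2 CPM (1.32 ± 0.06, adjusted p = 4.41e-12).

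Targets of YAP and TEAD, a second pathway that answers to actin tension, were higher for 13 of 21 and lower for 2 (median 0.27, with 1 lower without empty vector replicate 2). Ccn2 and Ccn1, matricellular proteins that both pathways are known to drive, stood at 8.37, 9.48 and 7.28 and 80.2, 86.2 and 66.2 CPM with empty vector and at 106, 89.9 and 78.4 and 323, 268 and 245 CPM with wild type. Their log2 fold changes were 3.45 ± 0.32 (adjusted p = 2.48e-06) and 1.84 ± 0.19 (adjusted p = 7.73e-06). Ccn5, another member of the same family, which lacks the domain that the others end in, fell from 3.85, 6.9 and 5.5 to 1.63, 1.52 and 1.61 CPM (-1.77 ± 0.21, adjusted p = 1.31e-05). Ccn4, of the same family, went from 38.8, 47.2 and 43 to 32.8, 32.5 and 31.5 CPM (-0.41 ± 0.06, adjusted p = 3.02e-05), so that of these 4 members 2 were higher and 2 lower.

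**Figure D4:**
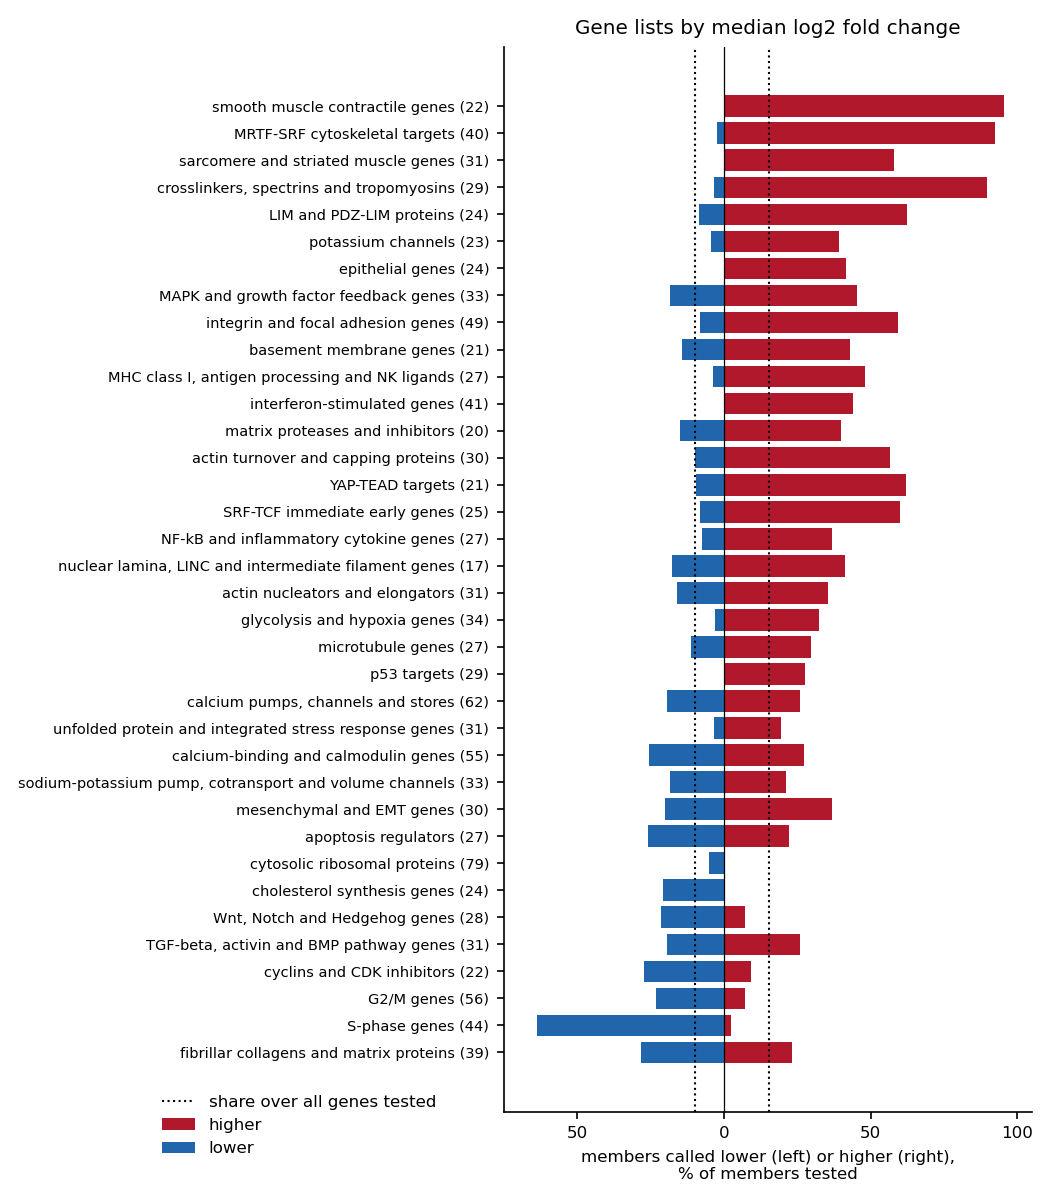
Share of the tested members of gene lists with at least 15 tested members (number in brackets) that were higher, in red to the right, or lower, in blue to the left, in E0771 with wild-type MRTFA. Dotted lines mark the shares over all genes tested (15.4% higher and 9.71% lower), and lists are ordered by their median log2 fold change, from smooth muscle contractile genes at the top to fibrillar collagens and matrix proteins at the bottom.

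Ion transport genes were examined because the series names Ca2+ and K+. Most potassium channel genes were under the low-count filter: of 77 listed, 23 passed the filter, of which 9 were higher and 1 lower (median 0.88). Genes near 0 with empty vector can pass it only through their wild-type libraries, so this share and median lean upwards. The largest change was in Kcnmb1, the beta subunit that makes the large-conductance channel of smooth muscle more sensitive to Ca2+, from 0, 0.0785 and 0.0189 to 23.9, 23.7 and 23.6 CPM (9.49 ± 0.43, adjusted p = 2.31e-11, and 11.12 without empty vector replicate 2). Kcnip3, a Ca2+-binding partner of voltage-gated channels, went from 0.037, 0.0589 and 0.0946 to 6.25, 5.55 and 5.88 CPM (6.51 ± 0.38, adjusted p = 7.86e-11). Kcnh2, the hERG channel, which was already present, rose from 25.2, 19.8 and 23.3 to 53.2, 48 and 50 CPM (1.15 ± 0.10, adjusted p = 1.94e-08). Kcnn4, the intermediate-conductance Ca2+-activated channel, was the 1 that fell, from 110.5, 112 and 106 to 94.3, 95.6 and 96.5 CPM (-0.20 ± 0.06, adjusted p = 0.0149), a call lost without empty vector replicate 2 (0.0593) or wild-type replicate 1 (0.0542). Summed over the 77 genes, potassium channel transcripts were between 346.7 and 358.3 CPM with empty vector and between 377.3 and 385.9 CPM with wild type, so the large folds were in genes of low level.

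Calcium genes moved both ways. Of 62 tested pumps, channels and store genes, 16 (25.8%) were higher and 12 (19.4%) lower, against 15.4% and 9.71% of all genes. Without the 4 carry-over libraries 6 were lower. The median was 0.04 and turned to -0.04 with library totals. Trpv2, a cation channel, rose from 17.2, 18.4 and 15.4 to 139.7, 126 and 125 CPM (2.94 ± 0.20, adjusted p = 2.98e-08). Tmem63a, a stretch-gated channel, went from 50, 51.6 and 53.2 to 101, 97 and 94.1 CPM (0.92 ± 0.06, adjusted p = 1.14e-09). Jph2, which joins the cell membrane to the calcium store in muscle, and Slc8a2, a sodium-calcium exchanger, rose at low levels. Jph2 went from 0.426, 0.687 and 0.416 to 5.9, 4.22 and 4.4 CPM (3.25 ± 0.30, adjusted p = 6.01e-08). Slc8a2 went from 0.0556, 0.157 and 0.0568 to 1.31, 0.739 and 0.785 CPM (3.39 ± 0.48, adjusted p = 1.87e-05, and 4.05 without empty vector replicate 2). Itpr3, the type 3 channel by which IP3 releases stored Ca2+, fell from 233, 228 and 233 to 165, 178 and 180.4 CPM (-0.41 ± 0.05, adjusted p = 1.02e-06). A gene of high level, Atp2a2, the pump that fills the store, changed little and stood at 415, 414 and 423 and 471, 465 and 467 CPM (0.17 ± 0.04, adjusted p = 0.00163, and 0.0717 with library totals).

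Calcium-binding proteins were equally divided, with 15 (27.3%) higher and 14 (25.5%) lower of 55, against 15.4% and 9.71% of all genes. Without the 4 carry-over libraries 9 were lower, and the median was -0.01. Anxa3 rose from 95.6, 108 and 101 to 267, 251 and 248 CPM (1.33 ± 0.05, adjusted p = 5.79e-14). Plcb4, a phospholipase C that makes IP3, went from 0.259, 0.373 and 0.482 to 17.7, 14.9 and 15.8 CPM (5.44 ± 0.25, adjusted p = 2.77e-11). Of 33 genes of the sodium-potassium pump, cotransport and cell volume, 7 (21.2%) were higher and 6 (18.2%) lower (3 lower without the 4 carry-over libraries). Lrrc8c, a subunit of the volume-regulated anion channel, rose from 20.3, 20.9 and 20.9 to 52.9, 46.4 and 50 CPM (1.26 ± 0.09, adjusted p = 1.18e-09). Ano1, a chloride channel opened by Ca2+, went from 106, 107 and 109 to 55.6, 60.5 and 61.8 CPM (-0.85 ± 0.11, adjusted p = 1.6e-05). Aqp3, a water and glycerol channel, fell from 2.0, 1.67 and 1.67 to 0.862, 0.659 and 0.976 CPM (-1.10 ± 0.25, adjusted p = 0.00226, and 0.053 without the 4 carry-over libraries).

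**Figure D5:**
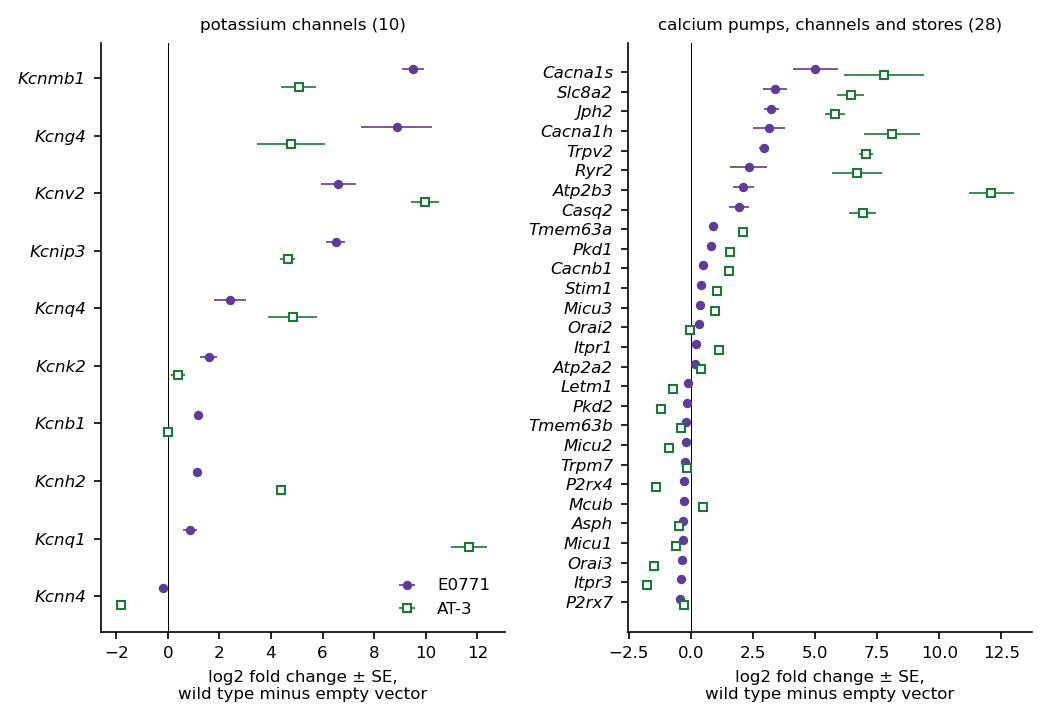
Log2 fold change ± SE, wild type minus empty vector, of the 10 potassium channel genes (left) and the 28 calcium pump, channel and store genes (right) called in E0771, with E0771 as filled circles and AT-3 as open squares. In E0771 the potassium genes reach from -0.20 at Kcnn4 to 9.49 at Kcnmb1, and the calcium genes from -0.41 at P2rx7 to 5.02 at Cacna1s (9.35 without empty vector replicate 1).

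Matrix genes were divided. Of 39 fibrillar collagens and matrix proteins, 9 were higher and 11 lower, with a median of -0.21 that turned to 0.27 without empty vector replicate 2, the library that held 1.22% of the AT-3 level of AT-3 genes. Thbs1, thrombospondin 1, was high in that library alone among the empty vector libraries: it stood at 0.537, 53.5 and 0.70 CPM with empty vector and 2.09, 9.24 and 1.73 CPM with wild type, and was not called (adjusted p = 0.289). Among genes that E0771 expresses, Col6a1 fell from 581, 559 and 598 to 339.5, 345 and 342 CPM (-0.76 ± 0.09, adjusted p = 9.13e-06) and its partner chain Col6a2 from 282, 272 and 291 to 171, 178 and 183 CPM (-0.67 ± 0.10, adjusted p = 8.86e-05). Prelp, a proteoglycan that anchors collagen, rose from 2.94, 2.36 and 3.36 to 26.3, 20.9 and 21.9 CPM (3.00 ± 0.15, adjusted p = 1.32e-11). Loxl2, which crosslinks collagen, went from 116, 112 and 124 to 204, 191 and 196 CPM (0.74 ± 0.09, adjusted p = 2.39e-06). Of 21 basement membrane genes, 9 were higher and 3 lower (median 0.34), with the laminin chain Lamb1 at 21.7, 25.1 and 21.8 and then 92.5, 84.5 and 82.6 CPM (1.92 ± 0.07, adjusted p = 2.25e-13). Of 20 proteases and inhibitors, 8 were higher and 3 lower (median 0.31), among them Plau, the urokinase, at 12.2, 12.7 and 12.2 and 49.4, 48.6 and 46.8 CPM (1.96 ± 0.11, adjusted p = 1.99e-10).

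Epithelial and mesenchymal genes did not move as opposites. Of 24 epithelial genes 10 were higher and 0 lower (median 0.55, with 3 lower when the 6 libraries were fitted alone). The largest fold change of the list was that of the keratin Krt17, at 0.287, 0.452 and 0.132 and 2.81, 1.62 and 2.02 CPM (2.89 ± 0.41, adjusted p = 1.88e-05, and 3.52 without the 4 carry-over libraries). Pkp2, a plakophilin of desmosomes, went from 67.9, 66.8 and 66.2 to 253, 237 and 228 CPM (1.84 ± 0.06, adjusted p = 3.51e-14). Jup, plakoglobin, went from 65.9, 63.7 and 66.3 to 173, 149 and 144 CPM (1.25 ± 0.09, adjusted p = 9.2e-09). Krt8, a keratin of simple epithelia, rose to 679, 609 and 567 CPM (1.03 ± 0.10, adjusted p = 4e-07). Of 30 mesenchymal genes 11 were higher and 6 lower (3 lower without empty vector replicate 2 and 2 without the 4 carry-over libraries), with a median of -0.03 that turned to 0.21 without that replicate. The 4 tested fibroblast markers were all lower, of which 2 were called without empty vector replicate 2 and 1 without the 4 carry-over libraries. Pdgfra, a growth factor receptor of fibroblasts, fell from 39.9, 43.8 and 44.9 to 17.5, 23.6 and 21.8 CPM (-1.03 ± 0.17, adjusted p = 0.000417).

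Genes of antigen presentation and of the interferon response were higher in moderate steps. Of 27 tested genes of class I MHC, of peptide loading and of ligands for NK cells, 13 were higher and 1 lower (median 0.33). B2m, the invariant chain of class I, rose from 344, 347 and 349.6 to 559, 544 and 549.9 CPM (0.67 ± 0.03, adjusted p = 2.93e-12). Nlrc5, the transactivator of class I genes, went from 27.7, 25.5 and 24 to 55.1, 53.1 and 47.8 CPM (1.02 ± 0.08, adjusted p = 2.94e-09). Of 41 interferon-stimulated genes, 18 were higher and 0 lower (median 0.32, with 2 lower with library totals). Gbp2 rose from 3.49, 3.74 and 3.18 to 14.4, 11.9 and 12.2 CPM (1.89 ± 0.13, adjusted p = 6.21e-10). These genes also stood high with Y238A: the 41 summed to between 931.2 and 986.3 CPM with empty vector, between 1094 and 1166 with wild type and between 1927 and 2453 with Y238A. Of 27 genes of NF-kB and inflammation 10 were higher and 2 lower (median 0.18, with 0 lower without empty vector replicate 2 or the 4 carry-over libraries). The cytokine Csf3 went from 0.037, 0 and 0.0757 to 5.96, 5.28 and 5.03 CPM (7.11 ± 0.72, adjusted p = 3.17e-06, and 8.06 without empty vector replicate 3).

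Most genes of DNA replication were lower, by less than 2-fold. Of 44 S-phase genes 28 were lower, 15 were not called and 1, Gins2, was higher, with a median of -0.20. The call of Gins2 was lost when any of 4 libraries was left out: empty vector replicate 2 (adjusted p = 0.0603) or 3 (0.1), or wild-type replicate 1 (0.0539) or 3 (0.0981). Over the other fits run for the lists, 18 to 33 S-phase genes were lower. Pcna, the replication clamp, fell from 178, 187 and 188 to 152, 149 and 151 CPM (-0.29 ± 0.04, adjusted p = 2.82e-06). Lig1, the replicative ligase, went from 189.9, 196 and 192 to 143, 150.4 and 145 CPM (-0.40 ± 0.05, adjusted p = 3.21e-06). For G2/M genes the count depended on the scaling: 4 of 56 were higher and 13 lower (median -0.12), with 26 to 30 lower under the other scalings 8 without empty vector replicate 2 and 7 without the 4 carry-over libraries. Likewise, of 79 ribosomal protein genes 0 were higher and 4 lower (median -0.07), with 21 to 50 lower under the other scalings and 0 without empty vector replicate 2 or the 4 carry-over libraries. Of 24 genes of cholesterol synthesis 0 were higher and 5 lower, with 1 lower without empty vector replicate 2 and 0 without the 4 carry-over libraries.

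The remaining lists held smaller or divided changes, to be set beside 15.4% higher and 9.71% lower over all genes tested. Of 29 p53 targets 8 were higher and 0 lower, with a median of 0.05 that turned to -0.02 with library totals (3 lower). The death receptor Fas rose from 1.58, 1.91 and 1.62 to 9.58, 8.87 and 9.98 CPM (2.47 ± 0.15, adjusted p = 1.58e-10). Of 34 genes of glycolysis and hypoxia 11 were higher and 1 lower (median 0.08). Slc2a1, the glucose transporter with the smallest p of the list, stood at 164, 162 and 177 and 283, 267 and 286 CPM (0.73 ± 0.04, adjusted p = 3.96e-11). Adm, the peptide hormone adrenomedullin, had the largest fold change of the list at 44.2, 53.1 and 50.1 and 226, 220.2 and 226 CPM (2.19 ± 0.18, adjusted p = 4.22e-07). Among 31 genes of TGF-beta, activin and BMP signalling 8 (25.8%) were higher and 6 (19.4%) lower. Fst, the activin antagonist follistatin, went from 0.111, 0.216 and 0.114 to 11.2, 11.2 and 10.8 CPM (6.23 ± 0.32, adjusted p = 9.42e-12). Of 28 Wnt, Notch and Hedgehog genes 2 were higher and 6 lower (10 or 11 lower under the other scalings). Gli1, a target and effector of Hedgehog signalling, fell from 61, 61.9 and 62.4 to 29.9, 33.2 and 33.2 CPM (-0.94 ± 0.16, adjusted p = 0.000286). Apoptosis regulators were divided, with 6 higher and 7 lower of 27, as were cyclins and CDK inhibitors, with 2 higher and 6 lower of 22. Of 31 genes of the unfolded protein response 6 (19.4%) were higher, a share near that over all genes, and 1 lower. There were 2 higher under each other scaling in edgeR and without empty vector replicate 2. Of 27 microtubule genes 8 were higher and 3 lower. Of 17 genes of the nuclear lamina and intermediate filaments 7 were higher and 3 lower, and of the 13 genes of the mitochondrial genome 0 and 0.

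Genes of other kinds also rose from close to 0. Ccna1, the germline A-type cyclin, had 0 counts in the 3 empty vector libraries together and 5.51, 4.79 and 5.19 CPM with wild type, at least 544.5-fold higher when the floor is set at 3 counts over the group. Gabra3, a subunit of the GABA receptor, also had 0 counts and then 5.28, 4.66 and 5.21 CPM (at least 531.4-fold higher), and Plac8 0 counts and then 3.21, 3.3 and 3.24 CPM (at least 341.7-fold higher). Muc3a, an intestinal mucin, had 2 counts over the empty vector libraries and 3950 over the wild-type libraries, a ratio of 2109 (95% counting interval 583.4 to 17418, with a log2 fold change of 13.30 without empty vector replicate 1). Krt20, an intestinal keratin, went from 0, 0.0196 and 0.0568 to 16.6, 13.6 and 15.2 CPM (9.15 ± 0.73, adjusted p = 4.22e-07, and 10.45 without empty vector replicate 3), and Ifi27l2b from 0.148, 0.0982 and 0.0189 to 44.6, 38.5 and 36.8 CPM (8.80 ± 0.50, adjusted p = 1.06e-08, and 9.40 without empty vector replicate 1). These genes belong to unlike tissues, and their wild-type libraries lay close together while the empty vector libraries were at or near 0. Of the 223 genes past 16-fold, 214 averaged under 1 CPM with empty vector and 36 reached 10 CPM or more on average with wild type.

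Decreases were modest and few were in genes of high level. Of the 54 genes lower by at least 2-fold, 4 averaged 10 CPM or more with empty vector. Pdgfra, given above, was among them. Gas7, an actin-binding protein, fell from 39, 35 and 38.7 to 17.2, 15.7 and 16.5 CPM (-1.19 ± 0.12, adjusted p = 2.02e-07). Ndrg4 fell from 40.1, 43.1 and 44.5 to 20.2, 18.6 and 21.3 CPM (-1.09 ± 0.06, adjusted p = 8.68e-11). Sulf2, which trims sulfate from heparan chains, went from 11.4, 12.8 and 12.3 to 5.51, 4.99 and 4.89 CPM (-1.25 ± 0.12, adjusted p = 1.55e-07). The largest losses in CPM were in abundant transcripts that changed by far less than 2-fold: Fth1, the ferritin heavy chain, fell from 3876, 3882 and 4225 to 3042, 2984 and 3264 CPM (-0.37 ± 0.05, adjusted p = 1.69e-05). Vim, vimentin, went from 4020.0, 4030.0 and 4128 to 3413, 3545 and 3537 CPM (-0.21 ± 0.06, adjusted p = 0.0143, and 0.0897 without the 4 carry-over libraries, 0.0524 with empty vector replicate 3 left out and 0.0611 with wild-type replicate 1 left out). Scd2, a fatty acid desaturase, fell from 1525, 1530.0 and 1655 to 1192, 1237 and 1242 CPM (-0.36 ± 0.10, adjusted p = 0.0124, and 0.0539 without empty vector replicate 3), and Gpc1, a heparan sulfate proteoglycan, from 755, 715 and 732 to 479, 482 and 467 CPM (-0.63 ± 0.05, adjusted p = 7.9e-09).

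Wild type was set against Y238A, the form with impaired SRF binding, to see which differences also stand against the mutant. The comparisons against empty vector and against Y238A share the wild-type libraries, so their values are given side by side without a test of likeness. Against Y238A, 4544 genes (31.5%) were called, 2514 (17.4%) higher and 2030 (14.1%) lower in wild type. The construct entry differed too, by 1.28 on the log2 scale, and the level of the construct and the mutation cannot be told apart. For Itga5 the log2 fold change was 2.45 against empty vector and 2.22 against Y238A, for Csrp1 2.74 and 2.92, and for Acta2 4.72 and 4.89. For these 3 genes the Y238A libraries stood at 118, 119.8 and 126 CPM (Itga5), 164, 152 and 142 CPM (Csrp1) and 393, 332 and 314 CPM (Acta2), far below wild type in every library. Actc1 stood at 2.0, 0.362 and 0.247 CPM and Acta1 at 8.61, 3.12 and 1.23 CPM in the 3 Y238A libraries, against empty vector means of 0.0666 and 1.98 CPM. Actc1 was thus above its empty vector mean in each Y238A library, and Acta1 in replicates 1 and 2. Both were highest in Y238A replicate 1, which also held 0.252% of the AT-3 level of AT-3 genes, a median that was 0 in Y238A replicate 3. The source of this trace was not tested. Other differences were not restricted to wild type: Gbp2 stood at 10.6, 7.48 and 10.8 CPM with Y238A, and Ndrg4, at 24.9, 21.4 and 24.7 CPM, was nearly as low as with wild type.

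The response of E0771 was last compared with that of AT-3 as a difference of the log2 fold changes of the 2 lines, tested in the same fit. That difference was called for 8510 genes (58.9%), more positive in E0771 for 5038 (34.9%) and more negative for 3472 of the 14446 genes, so a called difference was common. The split depended on the scaling: 4117 genes were more positive and 4113 more negative with DESeq2's size factors, 4258 and 4291 with DESeq2, 3827 and 4328 with TMM on an AT-3 library as reference, and 5315 and 3277 with library totals. The median difference over all genes was 0.10 with TMM, -0.01 with DESeq2's size factors or with DESeq2, -0.05 with the AT-3 reference and 0.13 with library totals. Of the 841 genes higher by at least 2-fold in E0771, 745 were also higher in AT-3 and 31 were lower. Their E0771 effect was more positive than the AT-3 effect for 184, more negative for 299 and not called different for 358. Of the 54 genes lower by at least 2-fold in E0771, 10 were higher and 28 lower in AT-3. The shares of all tested genes that were higher or lower in AT-3 are not given here, so these counts cannot be set against them. Csrp1 (2.74 in E0771 and 2.56 in AT-3) and Vcl (1.61 and 1.66) did not pass the test of a difference (adjusted p = 0.0623 and 0.421). Their differences were 0.17 ± 0.08 and -0.05 ± 0.05 (SE), sizes close to that shift of the median between scalings. The values of these 2 differences under the other scalings are not given here. Actg2 rose more in E0771 (8.07) than in AT-3 (4.43, difference 3.63 ± 0.72, adjusted p = 0.000772), as did Acta2 (difference 0.93 ± 0.16, adjusted p = 0.000163). Kank1 rose less in E0771 (2.37 and 5.60, difference -3.23 ± 0.09, adjusted p = 3.08e-15), as did the channel Trpv2 (2.94 and 7.05, difference -4.11 ± 0.34, adjusted p = 1.13e-07). Decreases were smaller in E0771 for the abundant Vim (-0.21 and -1.82, difference 1.61 ± 0.09, adjusted p = 1.6e-11) and Scd2 (-0.36 and -2.51, difference 2.15 ± 0.14, adjusted p = 1.77e-09).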

How the data were processed

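RNA was taken with the Qiagen RNeasy kit and library preparation used the NuGen Universal Plus mRNA kit, per the labels' protocols. The deposited table holds raw counts per gene, made with STAR and featureCounts on GRCm38, per the submitters' processing notes; their versions, the annotation, the strand setting and the making of the MRTFA entry are not given in the sources used here. All 18 libraries were fitted with 6 group means in edgeR 4.0.16 (R 4.3.3; TMM, robust quasi-likelihood F test), on 14446 genes that passed filterByExpr (minimum count 10, minimum total 15) over the 6 E0771 wild-type and empty vector libraries. The Benjamini-Hochberg adjustment ran over the 14446 genes, and calls were made at 0.05. CPM are relative to TMM-scaled totals, and SE is the log2 fold change divided by the square root of F. Totals of these 6 libraries and the 3 Y238A libraries lay between 81265466 and 107361933 counts.

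The design text speaks of sets of replicates, and same-numbered empty vector and wild-type libraries deviated together (correlations of 0.403, 0.584 and 0.464 over 11086 genes, against -0.394 to 0.0209 for other pairs), so the fit with the replicate number as a block was run as an alternative. The others were DESeq2 1.42.0, other scalings, other filters, fewer libraries and each library left out. On simulated counts for 14446 genes with the library sizes of the wild-type and empty vector comparison, the fit recovered 67.2% of 67 genes changed by 1.5-fold, 83.6% of 67 changed by 2-fold and 95.5% of 66 changed by 4-fold. It called 7 unchanged genes. The changed genes were drawn only from those past a floor of expected counts with empty vector, so these shares do not cover genes near 0 there. The simulated libraries held neither carry-over nor the shared deviation of same-numbered libraries.

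Members and gene lists (47) were chosen with earlier results of these data known, and 1 list is not reported here. Genes were named by rule, beginning with the construct, Mrtfa, Mrtfb and Srf. The rule then took the 15 highest and 15 lowest called fold changes with a mean of at least 1 CPM and groups that do not overlap. It also took the 10 smallest p-values and the 10 largest CPM differences in each direction. From each list it took up to 5 members by smallest p, called or not, with all actins and SRF factors. Last, it took up to 5 genes per direction of the difference between lines. Fewer were named for room. Genes named after their values were seen were Ablim1, Atp2a2, Cacna1s, Cnn1, Col6a2, Fhl1, Gins2, Itga3, Itgb4, Itgb5, Jund, Kcnn4, Klf4, Lcp1, Lmod1, Myh11, Myl9, Mylk, Slc8a2, Tagln, Thbs1, the 9 with opposite effects in the lines, and members listed at 0 or with CArG boxes. Cdh1, Epcam, Krt5, Myod1 and P2rx7 were also named outside the rule, after their values were seen. Promoter windows are RefSeq's for GRCm38.p6.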

Additional observations from a re-analysis of the deposited data

Results flagged for a closer look

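The difference between the E0771 and the AT-3 effect of wild-type MRTFA was tested in 1 fit (edgeR), and 19 genes are given here because that difference passed the test: the 5 of smallest p in each direction and the 9 whose effects were called in opposite directions with at least 2-fold in both lines. Differences are E0771 minus AT-3 on the log2 scale, and a called difference was found for 58.9% of all genes.

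In 5 genes AT-3 fell far while E0771 moved little. The differences were 1.93 for Ass1, which makes argininosuccinate (-0.48 in E0771 and -2.41 in AT-3), 2.17 for Apbb1ip, which brings talin to integrins (-0.23 and -2.41), 2.52 for Jade2 (-0.41 and -2.93), 3.52 for Ly6a, a surface protein of stem cells and lymphocytes (-0.10 and -3.63), and 2.08 for Zcchc24 (-0.22 and -2.30). In the opposite direction AT-3 rose far more than E0771. The differences were -6.28 for Ank1, an ankyrin that ties membranes to spectrin (0.15 and 6.43), -2.14 for Snd1 (0.31 and 2.44), -2.5 for Tln2, the talin of muscle (0.07 and 2.58), -3.07 for Clu, the chaperone clusterin (0.96 and 4.03), and -3.65 for Col18a1, a basement membrane collagen (-0.49 and 3.16). The E0771 effects of Ly6a, Ank1 and Tln2 did not pass the test (adjusted p = 0.341, 0.211 and 0.25).

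Effects were called in opposite directions for 352 genes, and 9 of these passed 2-fold in both lines with a mean of at least 1 CPM. All 9 kept both directions under 3 other scalings, but shifts between scalings are too small to turn a 2-fold change. Lower in E0771 and higher in AT-3 were Gja4, a connexin of vessels (difference -7.09, from -1.29 and 5.80), Tph1, which makes serotonin's precursor (difference -6.13, from -1.14 and 4.99), and Stra6, a retinol receptor (difference -3.47, from -1.01 and 2.46). The E0771 calls of Gja4 and Tph1 were lost without wild-type replicate 2 (adjusted p = 0.0534 and 0.0644), and that of Tph1 also without empty vector replicate 1 (0.065) or wild-type replicate 1 (0.0769).

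Higher in E0771 and lower in AT-3 were the other 6. The differences were 3.44 for Apold1, which stood at 16.6, 19.2 and 21.3 CPM in E0771 with empty vector and 85.3, 77.5 and 84 CPM with wild type (2.11 and -1.33 in the 2 lines), 2.66 for Rbm20, a splicing factor of muscle (1.18 and -1.49), and 4.71 for Lcn2, which binds siderophores (3.33 and -1.37). They were 2.1 for Shisa4 (1.09 and -1.02), 2.98 for Serinc2 (1.35 and -1.63) and 2.36 for Adamts6, a metalloprotease (1.25 and -1.10).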

How the results depend on the processing

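Counts of higher genes stayed within 1.5 times the reported ones under every setting tried except the 2-fold limit, and counts of lower genes did not. Genes lower with wild type than with empty vector numbered 2433 with DESeq2, 2116 with DESeq2's size factors in edgeR, 3101 with library totals, 2363 with TMM on an AT-3 library as reference (a setting chosen after seeing the data), 2152 when the 6 libraries were fitted alone and 649 without the 4 carry-over libraries, against 1403. Genes lower than with Y238A numbered 3355 with library totals and 1279 without these 4 libraries, against 2030. The cause was not tested. With a limit of 2-fold the counts were 841 higher and 54 lower against empty vector, 815 and 277 against Y238A, and 1304 more positive and 1641 more negative for the difference between the lines. Leaving out 1 library at a time gave 1942 to 2024 genes higher and 949 to 1139 lower against empty vector. With the replicate block 2310 genes were higher and 1550 lower, and the call of Cbfa2t3, lower by -1.12, was lost (adjusted p = 0.0663). Among the 258 genes under the naming rule, none changed direction while called under any setting run, 118 values over 23 genes lost a call and 13 over 6 gained one. Genes to which DESeq2 gave no adjusted p were left out of these counts. Depth limits the genes near 0 with empty vector, whose fitted folds rest on a few counts and move with each library left out.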
